A study of Mus musculus with 2 samples.

Results

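Autophagy delivers cytoplasm, organelles and protein aggregates to lysosomes inside a double membrane, the autophagosome, that is built on demand. A kinase complex around ULK1 starts the process, a lipid kinase complex around PIK3C3 marks the site with phosphatidylinositol 3-phosphate, ATG9 vesicles and ATG2 lipid transfer proteins feed the growing membrane, and a pair of ubiquitin-like conjugation reactions attaches proteins of the ATG8 family to it, where they bind cargo receptors. In the brain this turnover runs at a basal rate, autophagosomes form in axons as well as in cell bodies, and mice whose nervous system lacks Atg5 or Atg7 are known to accumulate ubiquitin-positive inclusions and to lose neurons.

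The autophagy machinery is described here as 35 genes of 55536 annotated genes. They were taken by symbol, as all Atg genes with a number, Ulk1 to Ulk4, Becn1, Pik3c3, Pik3r4, Rb1cc1, Wipi1, Wipi2, Map1lc3a, Map1lc3b, Gabarap, Gabarapl1, Gabarapl2, Sqstm1 and Optn that hold at least 1 transcript typed protein_coding. The rule uses no measured value, but it was set with earlier results of these data known. For the description they were put in 8 groups by role.

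Total RNA was measured in left cerebral cortex tissue of female B6CASTF1/J mice, first-generation hybrids of C57BL/6J and CAST/EiJ, aged 2 months and, as far as the labels say, untreated. The series held 1 group of 2 replicates with 1 library each, made from 300 ng of RNA, and no second condition. The labels number the tissue samples separately but give both the same donor entry, so the spread between the libraries may be technical. Replicate 1 carried 31196858 and replicate 2 carried 32292150 expected counts. Every cell type of the tissue was measured together, so fewer cells of a type and less RNA per cell cannot be told apart. Levels are given in TPM, a unit of transcript level per length, and values in pairs are for replicate 1 and replicate 2 in that order. The 5 neuronal markers were present with a median of 525 and 504 TPM. Of the choroid plexus markers, Ttr differed between the libraries, at 6.12 and 34.3 TPM, and Kcne2 was at 0.03 and 0.09 TPM; the part of this tissue in the values below was not tested. The members lie on 18 chromosomes.

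The 5 ATG8 genes held the largest share of the members' level, so the ends of their coding sequences are shown first. They are taken from the mm10 transcripts of GENCODE M21, for each gene from the protein_coding transcript with the highest count. Each is read 5′ to 3′ from 10 codons before a glycine codon to the stop codon. The glycine codon is in capitals; ATG4 proteases cut the protein behind this glycine, which is then joined to phosphatidylethanolamine.
Gabarapl1-201, chr6:129541129-129541167, plus strand: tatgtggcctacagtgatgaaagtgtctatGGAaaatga
Map1lc3a-201, chr2:155277599-155277637, plus strand: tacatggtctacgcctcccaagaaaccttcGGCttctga
Gabarapl2-201, chr8:111952367-111952405, plus strand: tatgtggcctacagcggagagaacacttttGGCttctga
Gabarap-201, chr11:69994486-69994524, plus strand: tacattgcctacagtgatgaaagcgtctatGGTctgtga
Map1lc3b-201, chr8:121596720-121596770, plus strand: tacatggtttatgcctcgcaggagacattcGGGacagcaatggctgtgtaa
In Gabarapl1, Map1lc3a, Gabarapl2 and Gabarap the glycine codon was followed by 1 codon before the stop, and in Map1lc3b by 5 codons. Over the whole coding sequence Gabarapl1 and Gabarap were identical at 74.6% of 351 aligned bases, and Map1lc3a and Map1lc3b at 77.6% of 362. Identity between a GABARAP-type and an LC3-type gene lay between 54.0% (Gabarapl1 and Map1lc3a) and 60.9% (Gabarapl2 and Map1lc3b).

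All 35 genes were detected, at 1 TPM or more in both libraries. Of the 22015 nuclear protein-coding genes, 12945 (58.8%) reached that level. At a stricter 5 TPM, 32 members remained, the exceptions being Ulk4, Atg9b and Atg4a, and 27 members reached 10 TPM in both libraries. Among detected protein-coding genes 62.4% reached 10 TPM. The median member stood at 22.2 and 21.2 TPM, against 16.6 and 15.5 TPM for detected protein-coding genes. Together the members held 0.361% and 0.359% of protein-coding TPM. Within that sum the ATG8 family took 43.8% and 43.7%, cargo receptors 13.5% and 13.3% and the initiation complex 11.2% and 10.9%. The membrane supply genes, the lipid kinase complex, the conjugation genes, the ATG4 proteases and the other ULK kinases shared the rest, between 1.25% and 9.39% each. The level of every member in each library is drawn below by role.

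**Figure D1:**
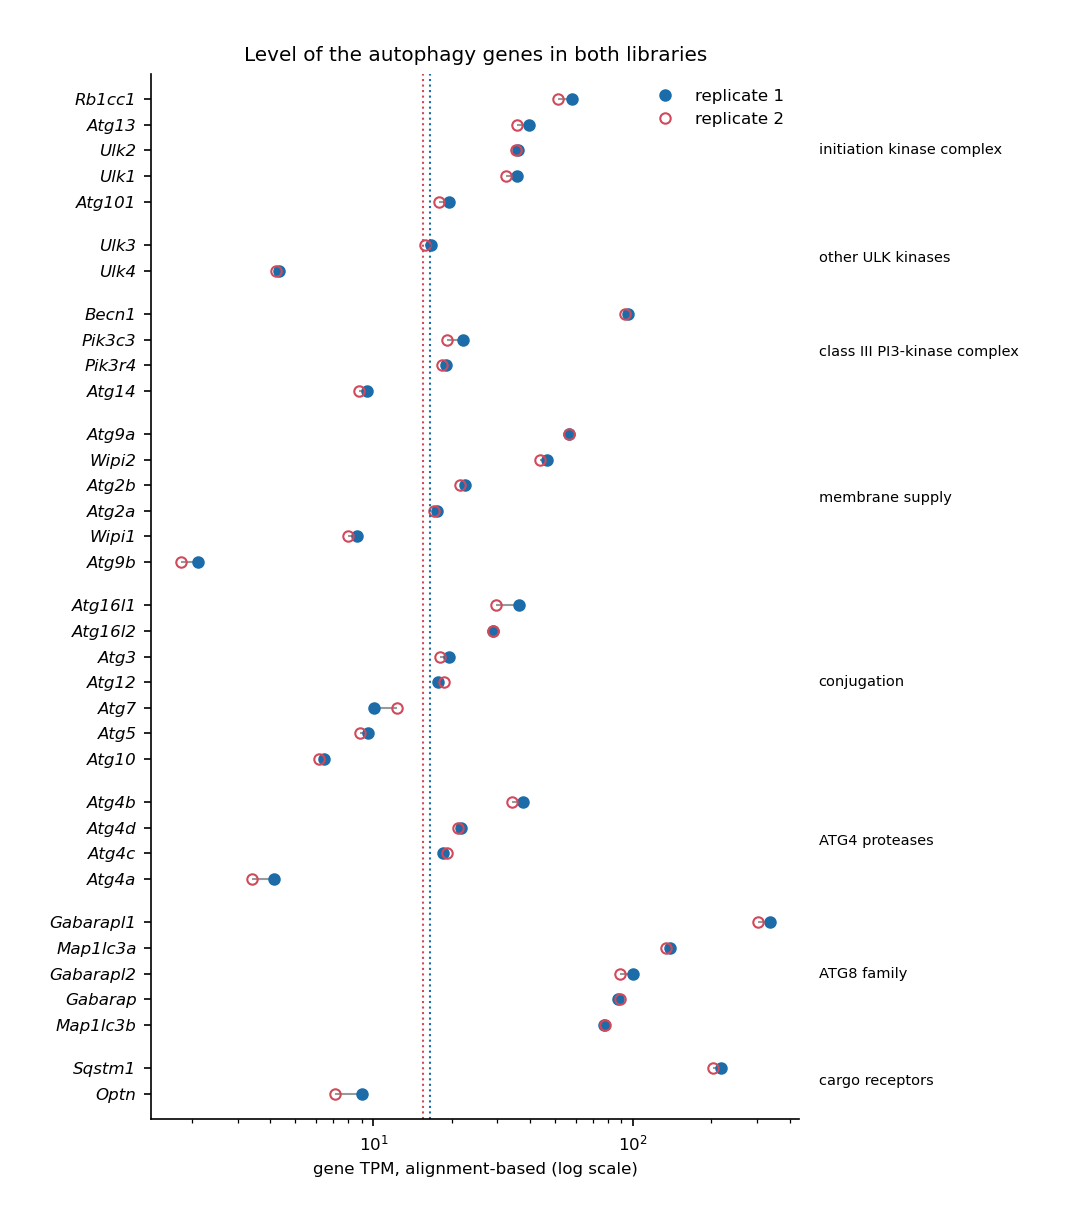
Gene level in alignment-based TPM (x axis, log scale) of the 35 genes, grouped by role and ordered by mean level within it; filled points are replicate 1, open points replicate 2, grey bars join them, and dotted lines mark the medians of detected protein-coding genes (16.6 and 15.5 TPM). The 5 ATG8 genes and Sqstm1 lie between 77.1 and 336 TPM, while Atg9b, Atg4a and Ulk4 lie lowest.

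In the initiation complex, which receives nutrient and stress signals, the scaffold Rb1cc1, also called FIP200, stood highest, with 58.0 and 51.2 TPM. Atg13, the adaptor that joins scaffold and kinase, had 39.6 and 35.8 TPM. The kinases Ulk2 and Ulk1 had 36.1 and 35.3 TPM and 35.6 and 32.2 TPM. Within each library the order was Atg13, Ulk2 and Ulk1, but the ranges over the 2 libraries overlapped between Atg13 and Ulk2 and between Ulk2 and Ulk1. Atg101, the partner that stabilises Atg13, was the lowest of the complex at 19.6 and 17.9 TPM and lay apart from all others in it. The remaining ULK genes, which are not part of this complex, were lower. Ulk3, a kinase known from Hedgehog signalling, had 16.7 and 15.9 TPM and Ulk4, a pseudokinase, 4.33 and 4.23 TPM, so that Ulk2 stood 8.33-fold above Ulk4 in both libraries.

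The lipid kinase complex was uneven. Becn1 (ENSMUSG00000035086.13, chr11:101285952-101302286, minus strand, mm10), the beclin subunit, was listed at 95.2 and 93.2 TPM, rank 994 among protein-coding genes. The catalytic subunit Pik3c3 had 22.2 and 19.2 TPM and its regulatory partner Pik3r4 had 19.0 and 18.4 TPM, close to each other but without overlap. Atg14, the subunit that directs the complex to autophagosome formation, was lowest at 9.46 and 8.79 TPM. Becn1 thus stood 10.1-fold and 10.6-fold above Atg14 in replicates 1 and 2. Most of the Becn1 level came from transcripts not typed protein_coding, as described further on; its protein_coding transcripts summed to 11.3 and 12.7 TPM by alignment, under the 22.2 and 17.4 TPM of those of Pik3c3. In the read-based tables, a second quantification that the authors deposited, the order was the other way round, with 46.9 and 42.3 TPM for Becn1 and 32.2 and 29.8 TPM for Pik3c3. Of the Becn1 values, 45.5 and 40.6 TPM were those of Becn1-212, a transcript of 684 bases with 332 coding bases. Becn1-205, with 1344 coding bases, had 1.38 and 1.75 TPM by reads, below the 27.7 and 24.1 TPM of Pik3c3-203.

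The genes of membrane supply were dominated by Atg9a and Wipi2. Atg9a, the lipid scramblase of ATG9 vesicles, had 56.8 and 56.6 TPM, and its paralogue Atg9b had 2.12 and 1.81 TPM, the lowest level of all members. Atg9a stood 26.8-fold and 31.2-fold above Atg9b. The phosphatidylinositol 3-phosphate reader Wipi2, which recruits Atg16l1, had 46.4 and 43.6 TPM against 8.64 and 7.95 TPM for Wipi1. The lipid transfer genes were nearer to each other, with 22.6 and 21.5 TPM for Atg2b and 17.5 and 17.1 TPM for Atg2a. All 5 pairs of neighbours in this order were separate over the libraries.

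In the conjugation system the levels ran over a narrower range. Atg16l1, which places the conjugate on the membrane, had 36.5 and 29.6 TPM and its paralogue Atg16l2 28.8 and 28.9 TPM. The ATG8-specific conjugating enzyme Atg3 and the ubiquitin-like protein gene Atg12 overlapped, at 19.6 and 18.0 TPM and at 17.7 and 18.8 TPM. The activating enzyme Atg7, shared by both reactions, had 10.1 and 12.4 TPM. Atg5, the acceptor of Atg12, had 9.49 and 8.84 TPM, and Atg10, the enzyme that joins them, was lowest at 6.44 and 6.19 TPM. Of the 6 neighbouring pairs in this group, 5 were separate. The read-based tables put Atg16l2 at 68.8 and 59.5 TPM, above Atg16l1 at 55.8 and 50.2 TPM. Which of the paralogues led by gene level therefore depended on the quantification. Over protein_coding transcripts alone Atg16l1 led in both. It had 19.71 and 16.86 TPM by alignment, against 6.54 and 5.76 for Atg16l2, and 37.5 and 35.3 by reads, against 8.475 and 8.70.

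Among the ATG4 proteases, which trim new ATG8 proteins and free them from membranes, Atg4b was highest at 37.7 and 34.1 TPM. Atg4d had 21.8 and 21.2 TPM, Atg4c 18.6 and 19.2 TPM and Atg4a 4.13 and 3.40 TPM. Their order was the same in both libraries without overlap. Atg4a carried only 79.2 and 80 expected counts, so its precision is the lowest beside Atg9b.

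Gabarapl1 (ENSMUSG00000030161.8, chr6:129533160-129542346, plus strand) led the ATG8 family and all members, with 336 and 302 TPM, rank 131 among nuclear protein-coding genes. Map1lc3a had 139 and 134 TPM, so that Gabarapl1 stood 2.42-fold and 2.26-fold above it. Gabarapl2, at 99.6 and 89.3 TPM, and Gabarap, at 87.6 and 89.3 TPM, overlapped. Map1lc3b, the member most often used to count autophagosomes in cell culture, was the lowest of the 5 at 77.1 and 77.6 TPM, 4.36-fold and 3.90-fold below Gabarapl1. In the read-based tables Gabarapl1 also led, at 618 and 574 TPM on that scale, but Map1lc3b was listed at 195 and 198 TPM, above Gabarap at 144 and 150 TPM and Gabarapl2 at 138 and 136 TPM. The place of Map1lc3b by gene level therefore changed with the quantification, while Gabarapl1 and Map1lc3a led the family in both. Over protein_coding transcripts alone Gabarapl1 still led, but by alignment the order below it was another. Gabarap had 81.91 and 83.55 TPM, Map1lc3b 75.0 and 75.85, Map1lc3a 64.66 and 63.65, and Gabarapl2 41.41 and 38.74. By reads Map1lc3a stayed second over these transcripts, at 210 and 216 TPM, above Map1lc3b at 190 and 194 TPM.

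The cargo receptors by the symbol rule stood far apart. Sqstm1 (ENSMUSG00000015837.15, chr11:50199366-50210827, minus strand), the p62 receptor that binds ubiquitin and ATG8 proteins, had 219 and 203 TPM, rank 268. Optn, a ubiquitin-binding receptor known for mitochondria and bacteria, had 9.0 and 7.13 TPM. Sqstm1 was 24.3-fold and 28.5-fold above Optn, and 17.3-fold and 23.1-fold above it in the read-based tables. Of 12 further receptor genes outside the rule all were detected, with medians of 51.8 and 50.4 TPM. They ran from Retreg1, a receptor of the endoplasmic reticulum, at 14.2 and 14.0 TPM, to the mitochondrial receptor Bnip3l at 90.7 and 83.1 TPM, so Sqstm1 lay above each of them and Optn below each.

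The other genes of the pathway outside the rule were also present. All 7 genes of a list drawn up around the lipid kinase complex, not all of them its subunits, were detected. Vmp1, a scramblase of the endoplasmic reticulum, was highest at 71.7 and 61.8 TPM, and Nrbf2 lowest at 7.94 and 8.31 TPM. Wdr45 and Wdr45b, relatives of the WIPI genes, had 30.0 and 29.5 TPM and 32.7 and 26.6 TPM. All 7 genes of fusion with lysosomes were detected, from Vamp8 at 6.02 and 4.99 TPM to Tecpr1 at 45.1 and 44.0 TPM. Pink1, the kinase that marks damaged mitochondria, had 138 and 129 TPM. Of 7 transcription factors linked to autophagy genes 6 were detected. Foxo3 led at 34.7 and 33.2 TPM, Tfeb had 4.28 and 4.53 TPM, and Tfec, with 3 and 1 counts, was at the limit of detection. None of the genes in these 6 lists was called different between the libraries at 2-fold.

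The 2 libraries were set against each other by the ratio of replicate 2 over replicate 1 of scaled counts, with an exact Clopper-Pearson 95% interval that covers counting error only. With 1 group no test between conditions can be made, and 2 libraries cannot reach p below 0.05 in a permutation test, so none was run. A gene was called different when its interval lay wholly beyond 2-fold, which held for 57 of 18562 genes tested (0.307%; 0.156% higher and 0.151% lower in replicate 2). None of the 35 members was called, and all lay within 1.25-fold. The share of all genes within 1.25-fold between the libraries is not given here. Their median absolute log2 ratio was 0.068, against 0.066 over the 13354 genes with counts at or above the lowest member.

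Counting error alone excluded equality for 8 of 35 members, while 15.1% of all tested genes (8.17% higher and 6.89% lower in replicate 2) and 17.8% of genes with counts at or above the lowest member did so. Higher in replicate 2 were Ulk2, with 3941 counts against 3690 in replicate 1, and a ratio of 1.05 (1.01 to 1.10), Atg2a at 1.13 (1.06 to 1.20), Atg12 at 1.11 (1.04 to 1.19) and Map1lc3b at 1.05 (1.002 to 1.11). Lower were Pik3c3 at 0.909 (0.842 to 0.981), Atg16l1 at 0.880 (0.822 to 0.942), Gabarapl1 at 0.954 (0.930 to 0.980) and Optn at 0.857 (0.746 to 0.984). They belong to 6 different role groups and split 4 to 4 in direction. By TPM, 29 of 35 members were higher in replicate 1, whereas by scaled counts 14 were higher and 21 lower in replicate 2. The median of detected protein-coding genes was also higher in replicate 1 by TPM, at 16.6 against 15.5 TPM. The same shares over all genes are not given here, so these counts do not set the members apart. The plot of ratios shows each interval.

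**Figure D2:**
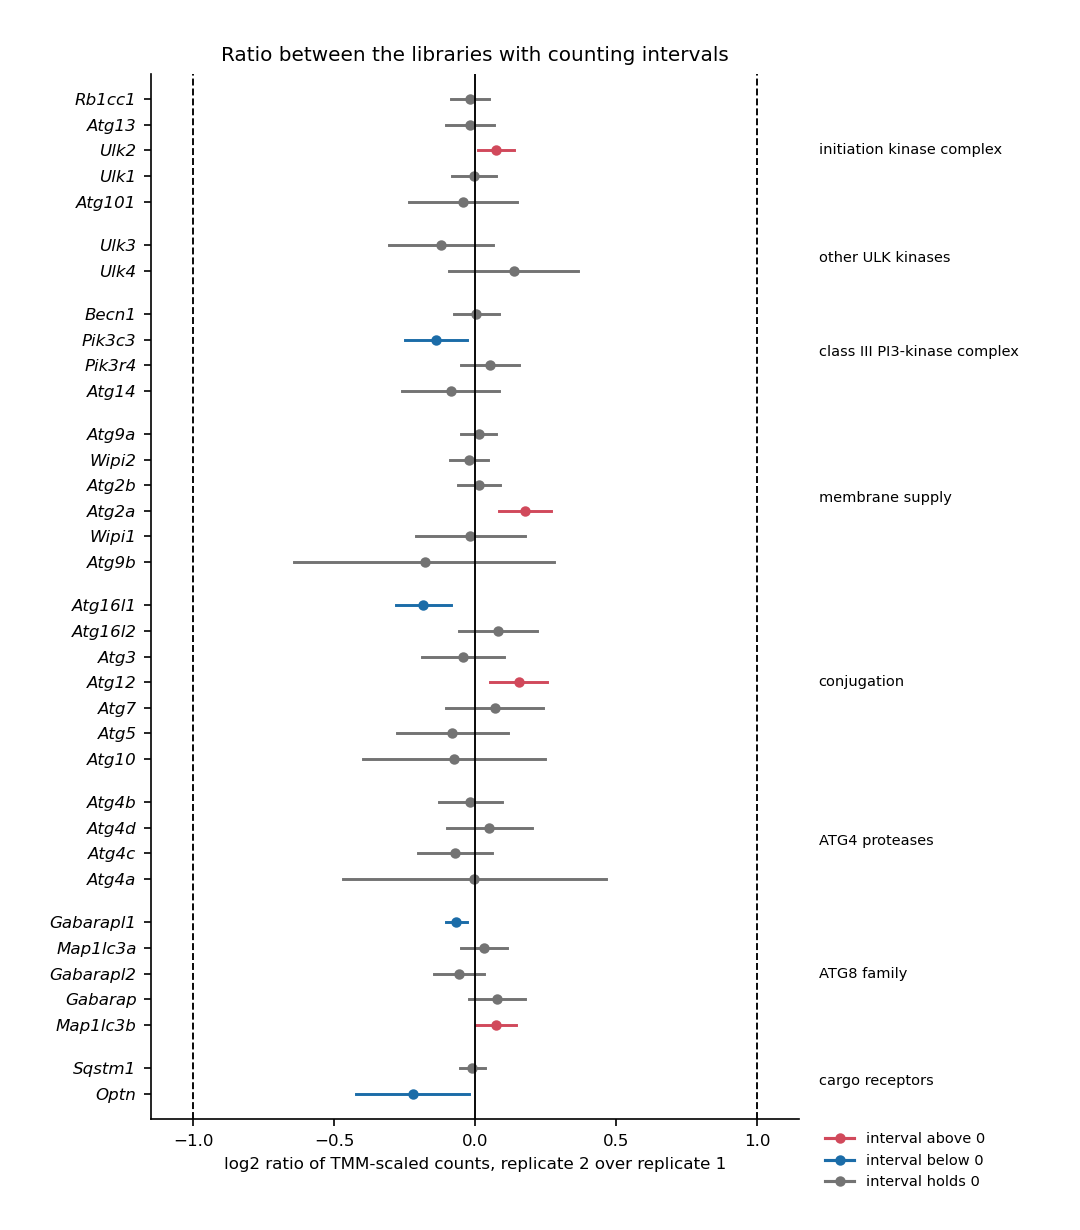
Log2 ratio of TMM-scaled counts, replicate 2 over replicate 1 (x axis), of the 35 genes by role; points are ratios, bars the exact 95% counting intervals, the solid line equality and the dashed lines 2-fold. Red bars (4 genes) lie above and blue bars (4 genes) below equality, no bar reaches 2-fold, and the widest bars are those of Atg9b and Atg4a, the genes with the fewest counts.

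The 35 genes hold 232 annotated transcripts, with a median of 5 per gene, as for detected protein-coding genes. Part of their level came from transcripts that GENCODE does not type protein_coding: retained introns, targets of nonsense-mediated decay and other processed transcripts. In the alignment-based tables these held 24.8% and 24.5% of the summed member TPM in replicates 1 and 2, against 17.4% and 17.0% over all nuclear protein-coding genes. The median share per member was 19.9% and 19.2%, against 11.7% and 11.4% over detected protein-coding genes. Such transcripts are often short, and TPM divides by length: as a share of expected counts they held 13.0% and 12.8% of the members, a measure added after the data were seen. The share of single genes also depended on this choice. A summed share over all protein-coding genes is given for alignment-based TPM only, so the members' share by expected counts has no such value beside it.

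Of the 35 members, 8 had over 50% of their TPM in such transcripts, against 10.7% of detected protein-coding genes. They were Atg4d (93.3% and 93.4%), Becn1 (88.1% and 86.4%), Atg9b (78.8% and 83.3%), Atg16l2 (77.3% and 80.04%), Atg4a (68.5% and 60.6%), Ulk3 (59.9% and 63.6%), Gabarapl2 (58.4% and 56.6%) and Map1lc3a (53.4% and 52.5%). By expected counts only Becn1, Atg4d and Atg9b, 3 of 35 members, were over 50%, against 6.16% of detected protein-coding genes. At the other end Gabarapl1, Atg101 and Wipi1 had none in either library by alignment. The highest and the lowest members of the ATG8 family by level thus had little of it, 0% in Gabarapl1 and 2.65% and 2.29% in Map1lc3b, and those between them ran from 6.41% in Gabarap to 58.4% in Gabarapl2. The read-based tables gave more than 50% in both libraries for Atg4d, Becn1, Atg9b, Atg16l2, Ulk3 and Gabarapl2. For Atg4a they gave 52.4% and 47.9%, and for Map1lc3a 9.06% and 5.14%. The share of Map1lc3a was therefore not the same in the 2 quantifications.

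**Figure D3:**
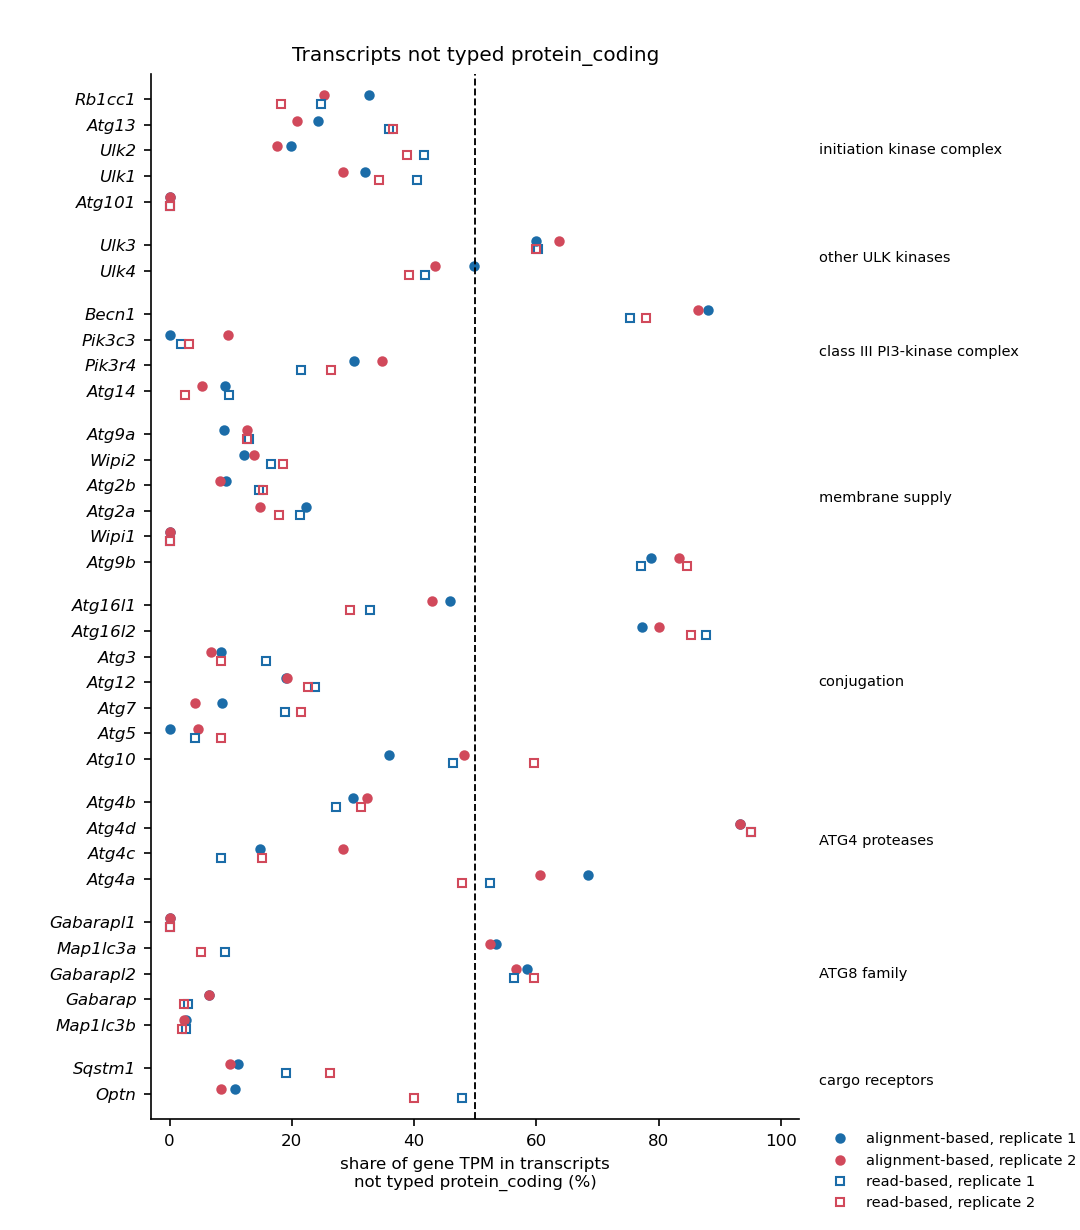
Share of each gene's TPM in transcripts not typed protein_coding, in percent (x axis), by role; filled circles are alignment-based and open squares read-based values, blue is replicate 1, red replicate 2, and the dashed line marks 50%. Atg4d, Becn1, Atg9b and Atg16l2 lie far to the right in both quantifications, Gabarapl1, Atg101 and Wipi1 lie at 0, and Map1lc3a lies at 53.4% and 52.5% by alignment and at 9.06% and 5.14% by reads.

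The leading transcript of a gene was taken as the one with the highest mean TPM over both libraries. It was not typed protein_coding in 7 members by alignment and in 6 by reads, and in 6 members by both; over detected protein-coding genes 7.85% had such a leading transcript by alignment and 5.08% by both. Taken library by library, 6 members by alignment and 5 by reads had such a lead in both, and Atg4a had it in replicate 1 and not in replicate 2. By counts in place of TPM the leading transcript was not typed protein_coding in 3 members, Becn1, Atg4d and Atg9b, in both quantifications. For Becn1 it was Becn1-201, typed as a target of nonsense-mediated decay, in both quantifications. It held 39.1% and 37.8% of the gene's TPM by alignment and 25.6% and 26.1% by reads, and 1540 and 1561 expected counts, against 60.0 and 66.7 counts for Becn1-205, the protein_coding transcript with the highest count. These transcripts differ little in exons. Becn1-201, with 2123 bases, holds all 1344 coding bases of Becn1-205 and 68 bases that Becn1-205 lacks, while Becn1-205, with 4365 bases, has 2310 bases beyond the 3′ end of Becn1-201. These bases are shown because the annotated reading frame, 315 bases, closes in them. The first block extends an exon by 64 bases (chr11:101296194-101296257, minus strand, these bases in capitals) and ends in the annotated stop codon, TAG. The other block adds 4 bases to a later exon (chr11:101294966-101294969, minus strand).
Becn1-201, first block: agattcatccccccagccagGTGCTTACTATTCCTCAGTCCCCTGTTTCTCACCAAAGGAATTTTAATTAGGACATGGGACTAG
Becn1-201, other block: ggaggaagctcaGTGGgtaccagcggga
Reads that lie outside these 68 bases and outside the long 3′ end of Becn1-205 can come from either transcript. The first block also lies, in whole or in part, in the retained introns Becn1-202, Becn1-210 and Becn1-213 and in the protein_coding Becn1-216, which was listed at 0 in every table. How many reads covered these bases cannot be read from tables of transcript values.

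Atg4d showed the same kind of pattern with retained introns. By alignment Atg4d-203 led with 43.0% and 43.4% of TPM and Atg4d-205 followed with 34.2% and 35.0%; by reads they held 38.5% and 38.2%, and 37.3% and 40.8%, so that Atg4d-205 was the higher in replicate 2. The only protein_coding transcript, Atg4d-201, had 1.46 and 1.41 TPM and 174 and 180 expected counts. Atg4d-203, with 2123 bases, holds all 1422 coding bases of Atg4d-201, lacks 4027 bases of its long 3′ end and adds 202 bases in 2 blocks. The first, 77 bases, is shown because it helps to set the coding part of Atg4d-203 apart from that of Atg4d-201. It joins the exons on either side without a break (chr9:21268528-21268604, plus strand) and runs from GT to AG, the usual ends of an intron.
Atg4d-203, retained intron: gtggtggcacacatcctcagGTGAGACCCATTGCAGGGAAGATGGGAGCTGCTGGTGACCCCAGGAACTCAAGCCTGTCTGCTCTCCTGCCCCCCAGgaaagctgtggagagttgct
Kri1, on the opposite strand, overlaps 19.3% of the exon bases of Atg4d and had 20.7 and 19.7 TPM.

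In Gabarapl2 and Map1lc3a the leading noncoding transcript began inside the gene. Gabarapl2-203, typed retained_intron, held 56.8% and 54.2% of the TPM of Gabarapl2 by alignment and 55.2% and 58.4% by reads. By counts the protein_coding Gabarapl2-201 led in both quantifications, with 1335 and 1338 counts against 751 and 688 for Gabarapl2-203 by alignment, and with 1297 and 1208 against 500.4 and 532 by reads. Gabarapl2-203 shares 657 of its 749 bases with Gabarapl2-201, and its first 92 bases are its own. Map1lc3a-203, a processed transcript, shares 757 of 826 bases with Map1lc3a-201 and starts with 69 bases of its own. By alignment it held 50.8% and 52.5% of Map1lc3a, by reads 9.06% and 5.14%, with Map1lc3a-201 at 90.9% and 94.9%. By counts Map1lc3a-201 led by alignment too, with 1339 and 1412 against 1047 and 1117 for Map1lc3a-203. Gabarapl2-201 also holds 1020 bases that Gabarapl2-203 lacks, and Map1lc3a-201 holds 355 that Map1lc3a-203 lacks. The own first bases are shown in capitals, since the protein_coding transcript lacks them. Each stretch runs on into coding bases of the protein_coding transcript, in lower case.
Gabarapl2-203, chr8:111941068-111941159, plus strand: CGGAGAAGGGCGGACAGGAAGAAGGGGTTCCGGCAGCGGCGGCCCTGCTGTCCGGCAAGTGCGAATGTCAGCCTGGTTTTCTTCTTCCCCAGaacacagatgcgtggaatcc
Map1lc3a-203, chr2:155276889-155276957, plus strand: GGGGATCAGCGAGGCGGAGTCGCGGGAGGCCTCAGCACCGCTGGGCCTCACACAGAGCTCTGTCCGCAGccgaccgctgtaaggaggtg
Both transcripts hold most of the coding bases of their gene, 90.3% in Gabarapl2-203 and 89.0% in Map1lc3a-203.

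The other members with such a leading transcript were low or spread over many transcripts. Atg9b-203, a processed transcript with 12 bases of its own, held 64.6% and 73.3% of Atg9b by alignment and 77.1% and 69.9% by reads, on 48.7 and 50.4 expected counts. Atg16l2 has 17 annotated transcripts, and the leading one, the retained intron Atg16l2-204, held 18.1% and 22.5% by alignment. By reads the lead changed between retained introns from library to library, with 15.9% for Atg16l2-205 in replicate 1 and 18.2% for Atg16l2-203 in replicate 2. Atg16l2-201, the protein_coding transcript with the highest count, had 350 and 362 expected counts but 2.70 and 2.60 TPM, as its length is 6459 bases. For Atg4a the noncoding lead held in replicate 1 and not in replicate 2. Atg4a-203 had 37.3% and 32.9% by alignment and was listed at 0 by reads, where Atg4a-202 had 52.4% and 47.9%, and the protein_coding Atg4a-201 led in replicate 2 with 39.4% by alignment and 52.1% by reads.

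The leading transcript was the same in both quantifications for 24 of 35 members (68.6%), against 77.3% of detected protein-coding genes. Among the abundant members Gabarapl1-201 led in both, with 97.8% and 98.2% by alignment and 75.0% and 78.1% by reads, as did Sqstm1-202 with 85.8% and 86.6%, and 78.7% and 71.5%. The leads of 7 further members moved between protein_coding transcripts, for 5 of them in both libraries. In Map1lc3b it was Map1lc3b-201 by alignment (67.4% and 67.5%) and the short Map1lc3b-203 by reads (51.3% and 56.3%). Of read-based counts, however, Map1lc3b-203 held 20.4% and 21.6%, against 61.8% and 66.8% for Map1lc3b-201. In Gabarap the lead was Gabarap-202 by alignment (51.4% and 54.6%) and Gabarap-201 by reads (56.1% and 56.8%). By counts in place of TPM, Map1lc3b-201 and Gabarap-201 led in both quantifications. In Atg9a it was Atg9a-201 by alignment (42.1% and 44.5%) and Atg9a-205 by reads (51.7% and 60.3%), in Atg14 it was Atg14-201 (86.4% and 82.7%) and Atg14-202 (53.6% and 68.4%), and in Atg7 it was Atg7-201 (48.4% and 40.0%) and Atg7-212 (42.3% and 46.0%). Atg13 and Rb1cc1 had no dominant transcript, and in 1 library each the quantifications gave the same lead. Atg13-202 led by reads with 39.6% and 41.8% and by alignment in replicate 2 with 40.4%, while Atg13-201 led by alignment in replicate 1 with 44.0%, against 38.8% in replicate 2. The short Rb1cc1-210, with 690 bases, led by reads with 22.0% and 22.7% and by alignment in replicate 1 with 19.9%, while Rb1cc1-201, the full coding transcript, had 18.6% and 23.7% by alignment and led in replicate 2. Of counts, Rb1cc1-210 held only 3.81% and 3.70% by alignment and 3.84% and 3.82% by reads. By counts Rb1cc1-201 led by alignment and Rb1cc1-212 by reads. The leads of Atg9a, Atg14, Atg7 and Atg13 by counts also differed between the quantifications.

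Gene levels were also compared between the quantifications, by a measure that cannot be set beside the one used for leading transcripts. Since the 2 kinds of table are on different scales, levels were first rescaled to the same sum over protein-coding genes. Then 30 of 35 members lay within 1.25-fold, as did 81.6% of detected protein-coding genes. Read-based levels were above this limit for Map1lc3b (1.52-fold), Optn (1.36-fold), Atg16l2 (1.33-fold) and Rb1cc1 (1.30-fold), and below it for Atg4a (0.614-fold). The plot of levels in both quantifications shows these genes away from the line of equality.

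**Figure D4:**
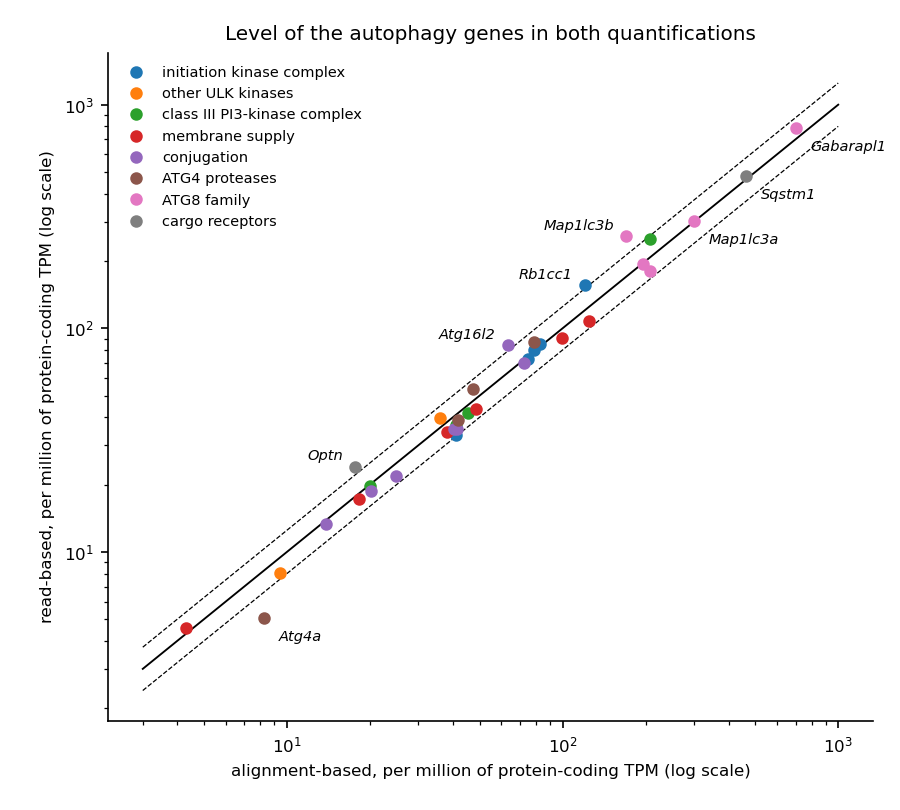
Mean level over both libraries, in TPM rescaled to the same sum over protein-coding genes, alignment-based (x axis) and read-based (y axis), both on log scales, of the 35 genes coloured by role; the solid line is equality and the dashed lines 1.25-fold. Of the 5 genes outside the dashed lines Map1lc3b, Rb1cc1, Atg16l2 and Optn lie above and Atg4a below, and Gabarapl1, Sqstm1 and Map1lc3a lie highest on both axes among the named genes.

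Near-identical copies limit 3 members. Map1lc3b shares its sequence with 3 processed pseudogenes, of which Gm6055, identical at 99.7% of 378 aligned bases, was listed with 137 and 158 expected counts, 24.0 and 25.9 TPM, by alignment and with 0 counts by reads. Map1lc3b itself had 3133 and 3346 counts by alignment, so its count is uncertain by at least the reads listed for the pseudogene. Gabarapl2 has the pseudogenes Gm3724 (14.5 and 2.72 counts) and Gm6051 (0 in both). Atg4a-ps, a copy identical to Atg4a at 99.3% of 2115 bases and outside the symbol rule, had 17.8 and 24.0 counts against 79.2 and 80 for Atg4a, so Atg4a is uncertain by a larger share.

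Of the 35 members, 13 overlap exons of a gene on the opposite strand, and 1 those of a gene on the same strand. The share over all protein-coding genes was not counted, so whether these numbers are unusual is not known. The largest overlap, 43.9% of the exon bases of Becn1, was with Cntd1, which had 6 and 8 counts. Ulk4 overlaps Ctnnb1 over 8.93% of its exon bases; Ctnnb1 had 219 and 193 TPM, and Ulk4 4.33 and 4.23 TPM. Whether the counting used strand is not given in the sources used here, so reads of such a pair may not be told apart.

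In RefSeq promoter windows of GRCm38.p6, from 250 bases before to 50 after a start, 29 of 35 members were matched. The E-box CACGTG, the core of the sequence that TFEB and its relatives bind, was found on either strand in 4 of them (13.8%), Atg3, Atg5, Atg7 and Atg14, and in 8.09% of all 27025 genes with a window. The Atg7 window with the E-box (chr6:114670846-114671145, plus strand) lies inside the gene, which begins at base 114643097. No GENCODE M21 transcript of Atg7 starts in that window. An extended form of this sequence was searched too and was in none of the 29 and in 0.37% of all genes. A match is a description of these letters only.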

How the data were processed

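The tables of 2 total RNA-seq libraries, 1 per replicate of left cerebral cortex, were used. From alignments, the authors deposited an expected count and a TPM for each gene and transcript; a further deposited table gives estimated counts and TPM of transcripts made from the reads alone. Assembly mm10 and annotation GENCODE M21 are named per the list of files deposited with each library. Which aligner and quantification software made them is not stated in the labels or headers. TPM has a fixed sum, so abundant short RNAs lower all other genes, and CAST/EiJ reads were quantified against the C57BL/6J reference, which can lower counts.

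The members and all gene lists were chosen with earlier results of these data known. All members were named, with transcript values for those whose leading transcript was not typed protein_coding or differed between quantifications and for the 8 of highest mean TPM. Expected counts were rounded, genes averaging under 10 counts were left out (18562 stayed), and libraries were scaled by TMM (edgeR 4.0.16 in R 4.3.3). Ratios have a prior count of 0.5 and intervals by the exact Clopper-Pearson method at 95% (scipy 1.17.1). Molecular identifiers were not used, so intervals show counting error only. The interval rule was tested on simulated data with known scaling. As the interval must lie wholly beyond 2-fold, a gene changed by just 2-fold is mostly not called. Read-based values of a gene were summed over its transcripts. Copies were sought with blastn 2.17.0 (identity of 98%, coverage of 80% of the shorter sequence). Coding sequences were aligned with Biopython 1.88; this comparison of bases replaced a planned one of proteins after the files were seen. Alternatives covered DESeq2 1.42.0 size factors, total and spike-in scaling, count filters, fold limits, prior counts, detection limits, units, the read-based tables and each replicate left out.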

Additional observations from a re-analysis of the deposited data

How the results depend on the processing

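The count of 0 members called different at 2-fold did not change with DESeq2 size factors, total or spike-in scaling, count filters, a 1.5-fold limit, prior counts or read-based counts. It was 8 when the interval only had to exclude equality, a weaker demand. Those split 4 higher and 4 lower in replicate 2 with TMM, DESeq2 and spike-in scaling, 2 and 4 with total scaling, and 4 and 2 with read-based counts, so single small ratios depend on the scaling. The detected members stayed at 35 in each replicate alone and at 0.5 TPM, and were 32 at 5 TPM. The median level of 21.5 TPM was 33.0 in read-based TPM and 47.3 after rescaling to protein-coding genes alone, which are other scales; with each replicate left out it lay between 21.2 and 22.2. The highest member of 8 role groups was the same in 7 groups by reads (conjugation genes differed) and in 7 by protein_coding transcripts alone, where Pik3c3 led its complex in place of Becn1; over protein_coding transcripts in the read-based tables all 8 were the same. Both of these settings were chosen after seeing the data. The lead of Becn1 over protein_coding transcripts in the read-based tables rested on the short Becn1-212. The 8 members with over 50% of TPM in transcripts not typed protein_coding were 3 by expected counts, also chosen after seeing the data. Leading transcripts matched for 33 to 34 members with a replicate left out and for 24 by reads. The share of TPM in transcripts not typed protein_coding, 24.6%, was 22.7% by reads, 12.9% over expected counts (chosen after seeing the data) and 24.5% to 24.8% with a replicate left out. No paired analysis was possible because the series has 1 group. Counts of 79.5 on average for Atg4a limit its ratio most, together with Atg9b.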
